A study of Populus tremula x Populus alba with 12 samples.

Results

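The cellulose synthase genes of the xylem secondary wall CesA4, CesA7-B and CesA8-A, were followed through leaf RNA-seq libraries of hybrid poplar. They were given by transcript ID, as rows Potri.002G257900.1 (CesA4), Potri.018G103900.1 (CesA7-B) and Potri.011G069600.1 (CesA8-A), and make up 3 of the 16866 transcript rows. The names follow published poplar nomenclature for these IDs, since the count tables carry no gene names. Each of the 3 loci had 1 row. The study sequenced 12 libraries of fully expanded leaves of a *Populus tremula* × *alba* clone (INRA 717 hybrid), taken at mid-stem from plants 3 months old. All plants had been raised in vitro and moved to a greenhouse, where every genotype was treated alike. The 4 groups of 3 libraries each were knockout, in which a glycosyltransferase was disrupted by CRISPR, a group labelled intermediate phenotype (intermediate here), empty-vector, and wild-type. Empty-vector and wild-type together are the 6 controls. The labels do not name the edited gene, the number of edited lines or the plant behind each library, so each p-value weighs a difference against library-to-library spread, which may be technical.

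Cellulose is made at the plasma membrane by rosette-shaped complexes of CesA proteins, which use UDP-glucose to extend glucan chains. One set of CesA proteins builds the thin primary wall of growing cells. In Arabidopsis, CesA4, CesA7 and CesA8 are each needed for the thick secondary wall, and the loss of any of them gives collapsed xylem vessels. In a leaf, secondary walls are laid down mainly in the xylem and fibres of the veins. CesA7-B and CesA8-A each have a near-identical copy in poplar, whose rows were not analysed here. How reads that fit both copies were counted is not given in the sources used here, so the exact levels of both genes are uncertain.

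Total counts ranged from 5.38 to 17.3 M per library, with a median of 6.18 M. Of all rows, 14279 were abundant enough to be tested. In a principal component analysis of these rows the first component (53.4% of the variance) set knockout apart. Knockout libraries 1, 2 and 3 lay at 90.2, 97.9 and 70.5 on it, and all others between -42.7 and 1.84. Libraries also stood apart within groups. On the third component (7.13% of the variance) knockout library 3 lay at -46.5, against 4.77 and 22.7 for knockout libraries 1 and 2, and intermediate library 1, which held the most CesA4 and CesA7-B of its group, at 36.5, against -10.9 and -0.58 for intermediate libraries 2 and 3. On the second (16.9%) empty-vector libraries 1 and 3 lay at 50.1 and 47.6 and wild-type library 3 at 11.9, while empty-vector library 2 lay at -17.8 and wild-type libraries 1 and 2 at -46.0 and -36.8. The intermediate libraries lay at -28.1, 12.8 and -11.0. Library numbers are names only and pair nothing across groups.

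CesA4, a subunit of the secondary-wall complex, was among the abundant leaf transcripts, with a mean level of 631 CPM (counts scaled to 1 M per library, with TMM factors) that exceeded 98.6% of tested rows. Knockout libraries held 1053, 1134 and 268 CPM and intermediate libraries 671, 493 and 499 CPM. Empty-vector libraries held 899, 480 and 663 CPM and wild-type libraries 418, 349 and 650 CPM. Knockout libraries 1 and 2 held the 2 highest levels of all 12 libraries and knockout library 3 held the lowest, so the knockout libraries lay on both sides of every other library. The mean ± SD over 3 libraries was 818 ± 479 CPM for knockout, 554 ± 101 CPM for intermediate, 681 ± 210 CPM for empty-vector and 472 ± 158 CPM for wild-type leaves. In the order knockout, empty-vector, intermediate, wild-type, no neighbours differed by more than their spread. In bulk leaf RNA, fewer xylem cells and less RNA per cell cannot be told apart.

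CesA7-B, another subunit of the same complex, followed the same order among the knockout libraries. Knockout libraries held 347, 391 and 87.9 CPM and intermediate libraries 258, 216 and 176 CPM. Empty-vector libraries held 389, 176 and 291 CPM and wild-type libraries 181, 145 and 281 CPM. Knockout library 3 was again the lowest of the 12 libraries and knockout library 2 the highest, but empty-vector library 1 lay above knockout library 1. The mean ± SD over 3 libraries was 275 ± 164 CPM for knockout, 217 ± 40.9 CPM for intermediate, 285 ± 106 CPM for empty-vector and 202 ± 70.4 CPM for wild-type leaves. Here the order of means was empty-vector, knockout, intermediate, wild-type, and no neighbours in it differed beyond their spread.

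CesA8-A, assigned to the third subunit class of the complex, was close to the limit of detection. Knockout libraries held 11, 12 and 10 counts (1.88, 2.24 and 1.10 CPM) and intermediate libraries 8, 15 and 10 counts (1.47, 2.50 and 1.06 CPM). Empty-vector libraries held 30, 33 and 20 counts (2.79, 1.92 and 2.14 CPM) and wild-type libraries 2, 16 and 14 counts (0.384, 2.85 and 2.15 CPM). The mean ± SD over 3 libraries was 1.74 ± 0.584 CPM for knockout, 1.68 ± 0.744 CPM for intermediate, 2.28 ± 0.453 CPM for empty-vector and 1.79 ± 1.27 CPM for wild-type leaves. The groups overlapped, and the counting error of single libraries was as wide as most of these differences. The exact 95% Poisson interval was 0.526 to 2.02 CPM in knockout library 3, 0.939 to 3.37 CPM in knockout library 1 and 0.0465 to 1.39 CPM in wild-type library 1, and it covers counting error only. Only 9.73% of tested rows had a lower mean. Of the 3 rows, those of CesA4 and CesA7-B were thus abundant and that of CesA8-A had low counts. The other CesA8 copy was not analysed, so the level of the CesA8 class as a whole is not known.

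**Figure D1:**
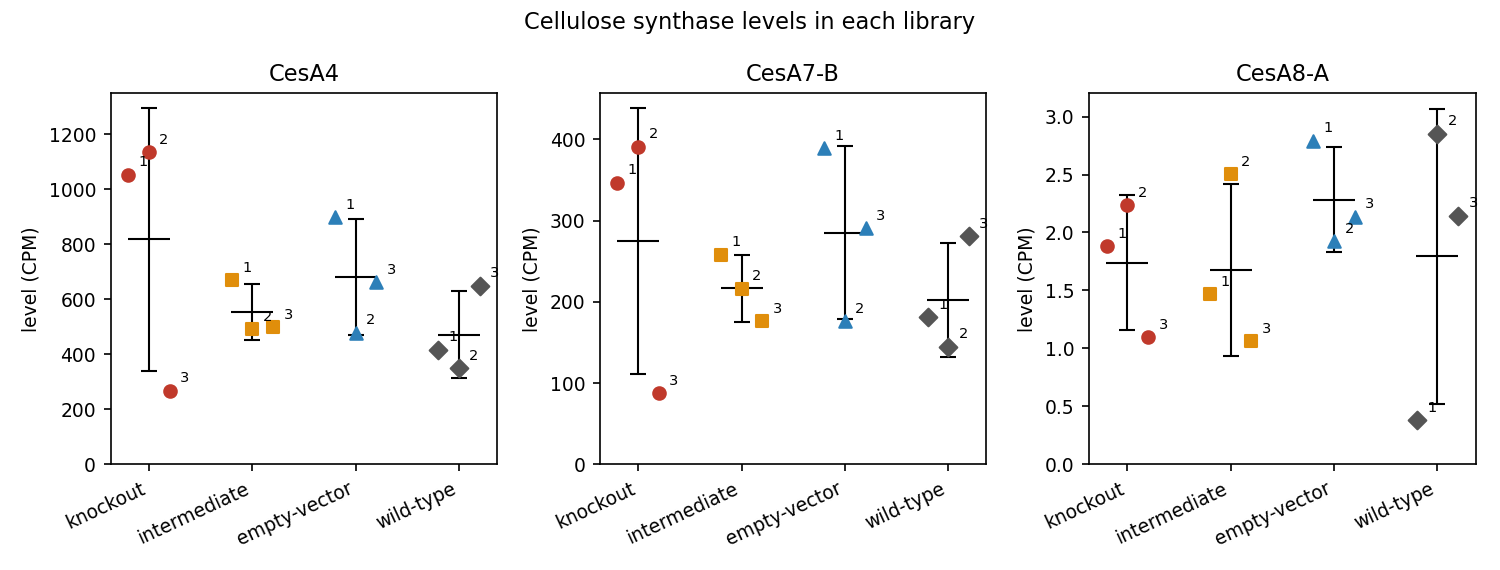
Level of CesA4, CesA7-B and CesA8-A in CPM (vertical axes, starting at 0) in each of 12 libraries, by genotype group. Points are libraries with their numbers, black bars are group means ± SD (n = 3). Knockout library 3 is far below knockout libraries 1 and 2 for CesA4 (268 against 1053 and 1134 CPM) and CesA7-B (87.9 against 347 and 391 CPM).

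None of the 3 members passed the test between knockout and controls, while edgeR called 30.1% of all tested rows there. DESeq2 and limma-voom also called 0 of 3, and 0 of 3 had an unadjusted edgeR p under 0.05, beside 40.7% of all rows. In 0 of 3 members did all knockout libraries lie above or all lie below the 6 controls, which 27.8% of all rows did. For CesA4 the fold of knockout over controls was 1.44 with a 95% interval of 0.824 to 2.53, a log2 fold change of 0.53 ± 0.37 (SE; edgeR quasi-likelihood test with Benjamini-Hochberg adjustment over all tested rows, adjusted p = 0.31). For CesA7-B the fold was 1.14 (95% interval 0.633 to 2.07; edgeR adjusted p = 0.75), and for CesA8-A it was 0.830 (95% interval 0.413 to 1.67; edgeR adjusted p = 0.70). The CesA4 result rested on 1 library. Without knockout library 3 its log2 fold change was 0.90 and passed (edgeR adjusted p = 0.018, range over all alternatives 0.018 to 0.76), whereas CesA7-B at 0.57 did not (edgeR adjusted p = 0.15). The direction of CesA7-B turned without knockout library 1 (-0.0041) or 2 (-0.14).

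Between knockout and intermediate, where 17.4% of tested rows were called, 0 of 3 members were called, whether by edgeR, DESeq2 or limma-voom. An unadjusted edgeR p under 0.05 was reached by 0 of 3 members and by 31.1% of all rows. The fold of knockout over intermediate was 1.48 for CesA4 (95% interval 0.763 to 2.86; edgeR adjusted p = 0.42), 1.27 for CesA7-B (95% interval 0.636 to 2.53; edgeR adjusted p = 0.66) and 1.03 for CesA8-A (95% interval 0.451 to 2.36; edgeR adjusted p = 0.97). Without knockout library 3, the CesA4 log2 fold change was 0.95 and passed (edgeR adjusted p = 0.038, range over all alternatives 0.038 to 0.78). That of CesA7-B, 0.34 over all libraries, was 0.0033 without knockout library 2 and 0.74 without knockout library 3 (edgeR adjusted p = 0.13). Knockout was compared with intermediate and with controls through the same 3 knockout libraries, so these results are not independent. The direction of CesA8-A turned without knockout library 1 (-0.036) or 2 (-0.17) or intermediate library 1 (-0.022) or 3 (-0.26).

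The intermediate leaves showed the narrowest CesA4 and CesA7-B levels of any group. Against controls their fold was 0.977 for CesA4 (95% interval 0.552 to 1.73), 0.902 for CesA7-B (95% interval 0.495 to 1.64) and 0.806 for CesA8-A (95% interval 0.401 to 1.62), with edgeR adjusted p of 0.999, 0.999 and 0.99. All 3 tools called 0 of 3 members, where edgeR called 0.00700% of all tested rows. An unadjusted edgeR p under 0.05 was reached by 0 of 3 members and 6.39% of all rows. The log2 fold change of CesA4 turned above 0 without intermediate library 2 (0.046) or 3 (0.013), empty-vector library 1 (0.093) or wild-type library 3 (0.12), and that of CesA7-B without wild-type library 3 (0.0080). Between empty-vector and wild-type, edgeR called 0.0420% of all tested rows (0.0350% higher in empty-vector), and the 3 tools called 0 of 3 members. An unadjusted edgeR p under 0.05 was reached by 0 of 3 members and 16.9% of all rows. The fold of empty-vector over wild-type was 1.44 for CesA4 (95% interval 0.744 to 2.79; edgeR adjusted p = 0.56), 1.41 for CesA7-B (95% interval 0.707 to 2.81; edgeR adjusted p = 0.60) and 1.25 for CesA8-A (95% interval 0.581 to 2.67; edgeR adjusted p = 0.78). CesA8-A turned to -0.13 on the log2 scale without wild-type library 1. The control level of CesA4 followed the second principal component. The control libraries at positive values on it read 899, 663 and 650 CPM, and those at negative values read 480, 418 and 349 CPM. The intermediate libraries did not follow it, with 671, 493 and 499 CPM at -28.1, 12.8 and -11.0. Over all 12 libraries the correlation of log2 CesA4 was 0.30 with the first component, which set knockout apart, 0.57 with the second and 0.72 with the third. For CesA7-B these values were 0.064, 0.60 and 0.73. The components were computed from all tested rows of the same libraries. The sign of each component was set so that CesA4 correlated positively with it, so the direction of these relations is not a result. The part of whatever separates these libraries in the member levels was not tested.

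CesA4 and CesA7-B moved together across libraries. Pearson's r of their log2 CPM was 0.965 over 12 libraries (permutation p = 1e-05, the smallest that 100000 resamples can give, and 3e-05 after Benjamini-Hochberg adjustment over 3 pairs) and Spearman's rho was 0.923 (permutation p = 9e-05, adjusted 2.7e-04). The relation did not rest on the extreme libraries. Without knockout libraries 3 and 2, the farthest from the CesA4 median, r was 0.951 (permutation p = 7e-05, n = 10). Over the 9 libraries outside knockout it was 0.965 (exact permutation p = 2.8e-04). For deviations from the 4 group means, which still include the extreme knockout libraries, r was 0.989 (exact permutation within groups, p = 0.0015). Each gene varied with an SD of 0.63 and 0.64 on the log2 scale over all libraries, while their log2 ratio varied with an SD of 0.17.

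**Figure D2:**
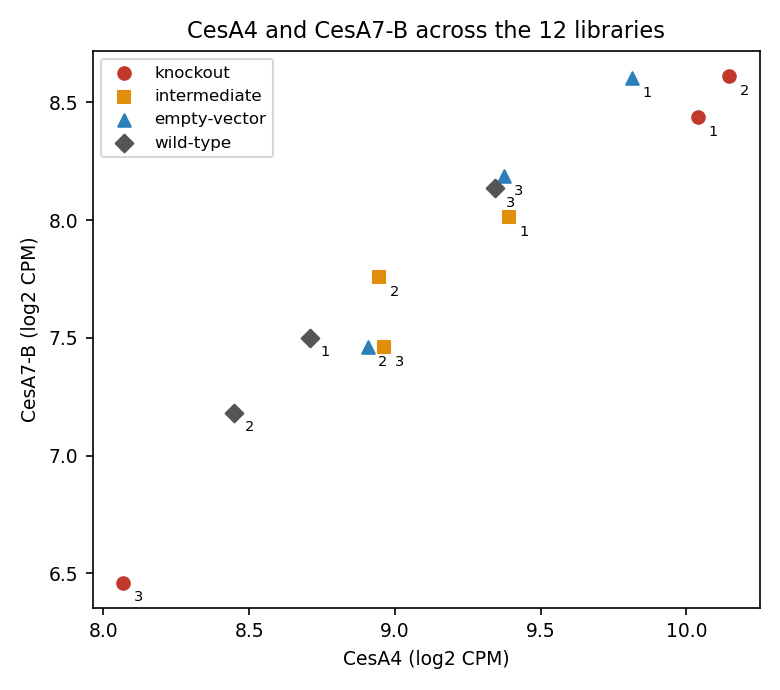
Log2 CPM of CesA7-B (vertical axis) against CesA4 (horizontal axis) in 12 libraries, with symbols for genotype and library numbers beside them. The points run along 1 line from knockout library 3 at the lower left to knockout libraries 1 and 2 at the upper right (Pearson's r = 0.965).

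CesA8-A did not share this pattern measurably. Its r was 0.388 with CesA4 (permutation p = 0.21, adjusted 0.21) and 0.425 with CesA7-B (permutation p = 0.17, adjusted 0.21), with rho of 0.210 (permutation p = 0.51, adjusted 0.51) and 0.343 (permutation p = 0.27, adjusted 0.41). Without knockout libraries 3 and 2, r was 0.268 and 0.320. With as few as 2 counts in a library, counting error limits what these values can show.

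The balance of CesA4 to CesA7-B lay higher in every knockout library than in any other. The test of this difference against controls did not pass after adjustment, where so few libraries left it little room to pass. Knockout libraries held 3.04, 2.90 and 3.05 CesA4 counts per CesA7-B count, and intermediate libraries 2.60, 2.28 and 2.83. Empty-vector libraries held 2.31, 2.72 and 2.28, and wild-type libraries 2.31, 2.41 and 2.31. The 3 knockout libraries agreed closely despite their 4.23-fold range of CesA4. The exact 95% binomial intervals of single libraries, which cover counting error only, were 2.76 to 3.05 in knockout library 2, 2.68 to 3.00 in intermediate library 3 and 2.61 to 2.84 in empty-vector library 2, so the closest knockout and other libraries overlapped in counting error. The ratio holds no library scaling. It compares counts and not molecules per length, so only its change between libraries is read.

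The mean log2 ratio was 1.58 ± 0.04 in knockout (SD, n = 3) and 1.25 ± 0.10 in controls (SD, n = 6), a difference of 0.33 or 1.26-fold, with an exact two-sided permutation p of 0.024, the smallest that 3 against 6 libraries allow. Adjusted over the 3 ratios among the members the exact permutation p was 0.071, which did not pass. Unless another ratio also gave a low p, 3 against 6 libraries could not give a lower adjusted value. This outcome therefore does not weigh against a difference. Without any 1 knockout library the difference was 0.32, 0.35 and 0.32, with an exact permutation p of 0.071 each time, the smallest that 2 against 6 libraries allow. The ratios of CesA4 to CesA8-A and of CesA7-B to CesA8-A gave differences of 0.41 and 0.08 (exact permutation p = 0.45 and 0.86, adjusted 0.68 and 0.86), and the first ran from 0.16 without wild-type library 2 to 0.83 without knockout library 3. The direction of the second turned without knockout library 1 or 2, empty-vector library 2 or wild-type library 2. Against intermediate the CesA4 to CesA7-B difference was 0.23 (exact permutation p = 0.10, the smallest that 3 against 3 allow), a comparison added after the values were seen. Also added then, intermediate against controls gave 0.10 (exact permutation p = 0.31) and empty-vector against wild-type 0.05 (exact permutation p = 0.90). For comparison, the ratio of CesA4 to each of the 14278 other rows placed all knockout libraries above all controls in 3.66% of rows, and all above or all below them in 7.62%. Among the 35 rows with an r of at least 0.9 with CesA4, the ratio placed all knockout libraries above all controls in 4 (11.4%), of which CesA7-B is 1. In turn, the ratio of CesA7-B to another row placed all knockout libraries below all controls in 5.62% of rows, and in 4 of the 45 rows (8.89%) with an r of at least 0.9 with CesA7-B.

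**Figure D3:**
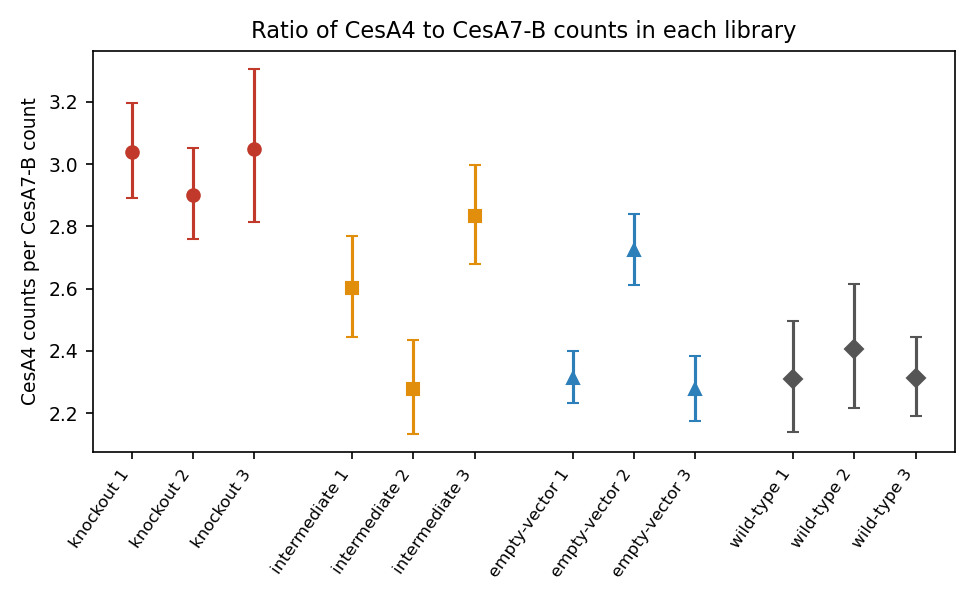
CesA4 counts per CesA7-B count (vertical axis, not starting at 0) in each library, with exact 95% binomial intervals that cover counting error only. Knockout libraries lie between 2.90 and 3.05, above all other libraries, whose highest values are 2.83 in intermediate library 3 and 2.72 in empty-vector library 2.

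The knockout libraries lay farther apart than those of any other group for both abundant members. The SD of log2 CPM for CesA4 was 1.17 among knockout, 0.25 among intermediate, 0.45 among empty-vector and 0.46 among wild-type libraries. For CesA7-B it was 1.19 among knockout, 0.28 among intermediate, 0.58 among empty-vector and 0.48 among wild-type libraries. The median SD of all tested rows was 0.27 in knockout, and 2.11% of rows reached the SD of CesA4 and 1.96% that of CesA7-B. Among the 1754 rows with a mean of at least 100 CPM, these shares were 1.94% and 1.88%. With 3 libraries a group, the difference in spread was not tested.

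Nearly all of this spread came from knockout library 3. Its CesA4 level lay 1.97 log2 units (3.93-fold) below the lower of the other 2 knockout libraries, and its CesA7-B level 1.98 units (3.94-fold). Only 69 and 68 of the 14279 rows (0.483% and 0.476%) showed a gap at least as large. Without this library the SD was 0.08 for CesA4 and 0.12 for CesA7-B. For CesA8-A the knockout SD was 0.46, reached by 24.2% of rows, and its largest SD, 1.23 in wild-type, turned on the library with 2 counts. Knockout library 3 also had more counts in total (9.20 M) than knockout libraries 1 and 2 (5.83 and 5.38 M). Over all 12 libraries, the correlation of log2 total counts with log2 CPM was -0.23 for CesA4 and -0.27 for CesA7-B. The part of depth in the low level of library 3 was not tested.

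**Figure D4:**
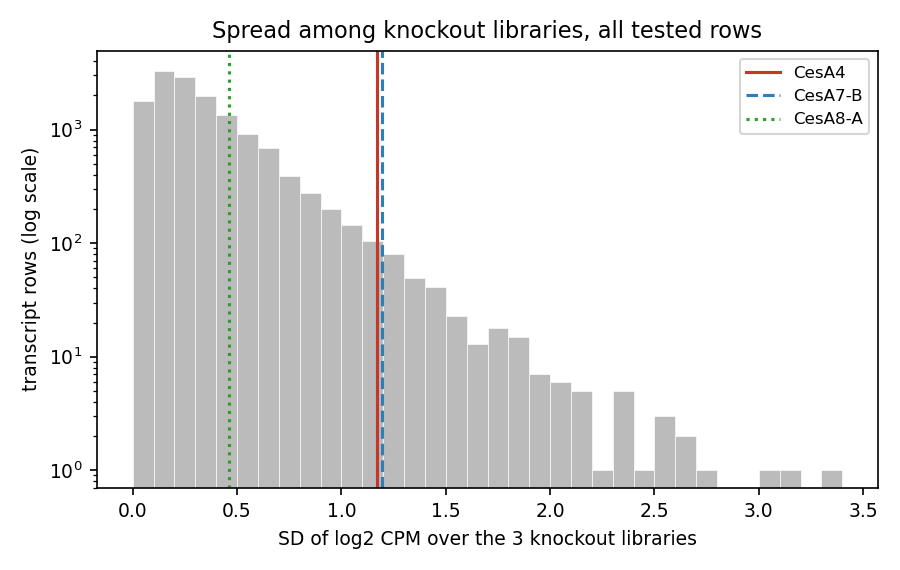
Number of tested transcript rows (vertical axis, log scale) by the SD of log2 CPM over the 3 knockout libraries (horizontal axis, bins of 0.1). Vertical lines mark the members. CesA4 at 1.17 and CesA7-B at 1.19 lie in the upper tail, CesA8-A at 0.46 does not.

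Other genes of wall synthesis were taken from lists of poplar IDs recalled from published nomenclature and not checked against an annotation, so they are given as groups only. Xylan is the main hemicellulose of the poplar secondary wall, lignin is built from monolignols, and NAC and MYB factors regulate secondary-wall genes. The lists held 6 tested IDs for xylan synthesis of 7 listed, 10 of 19 for monolignol enzymes, 9 of 10 for NAC and MYB regulators, and 3 of 12 for primary-wall CesA genes. The IDs not tested had no row of that name in the deposited counts, so none was removed by the abundance filter used here. Why they have no row is not known, and low abundance may be a reason. Between knockout and controls, edgeR called 1 of 6 xylan IDs higher, 0 of 10 monolignol IDs, 1 of 9 regulator IDs lower and 1 of 3 primary-wall CesA IDs lower, beside 17.1% of all rows higher and 13.0% lower. An unadjusted edgeR p under 0.05 was reached by 2 of 6 xylan, 2 of 10 monolignol, 1 of 9 regulator and 1 of 3 primary-wall CesA IDs, and by 40.7% of all rows. DESeq2 and limma-voom called 0 monolignol IDs. Of the regulator IDs DESeq2 called 1 and limma-voom 0. The median log2 fold changes were 0.19, 0.06, -0.19 and -0.11 for these 4 lists in that order, against -0.02 for all tested rows.

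In the other comparisons few list IDs were called. Between knockout and intermediate edgeR called 1 regulator ID, lower in knockout, beside 9.94% of all rows higher and 7.41% lower. DESeq2 also called 1 regulator ID and limma-voom 0. Of the other 3 lists all 3 tools called 0 IDs. An unadjusted edgeR p under 0.05 was reached there by 1 of 6 xylan, 0 of 10 monolignol, 1 of 9 regulator and 0 of 3 primary-wall CesA IDs, and by 31.1% of all rows. Between intermediate and controls and between empty-vector and wild-type, edgeR called 0 IDs of any list, where it called 0.00700% and 0.0420% of all rows. Unadjusted edgeR p-values under 0.05 numbered 1 for intermediate against controls, among the 3 primary-wall CesA IDs, beside 6.39% of all rows. For empty-vector against wild-type they numbered 2 of 3 primary-wall CesA and 1 of 10 monolignol IDs, beside 16.9% of all rows. DESeq2 called 1 monolignol ID between empty-vector and wild-type and 0 others in these 2 comparisons, and limma-voom called 0.

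Over the 12 libraries all 6 xylan IDs had an r of at least 0.77 with CesA4, while the monolignol and regulator lists were mixed. In knockout library 3, 6 of 6 xylan IDs, 8 of 10 monolignol IDs and 9 of 9 regulator IDs read lower than in both other knockout libraries, as did 1 of 3 primary-wall CesA IDs and 36.8% of all tested rows. The median r with CesA4 over 12 libraries was 0.80 for the xylan list, 0.72 for the monolignol list, 0.75 for the regulator list and 0.03 for the primary-wall CesA list, against 0.03 for all rows. Within the monolignol list r ran from 0.01 to 0.92, and within the regulator list from 0.04 to 0.94. An r of at least 0.7 was reached by 6 of 6 xylan, 5 of 10 monolignol, 5 of 9 regulator and 0 of 3 primary-wall CesA IDs, and by 3.91% of all rows. Over the 9 libraries outside knockout, the median r was 0.92 for xylan, 0.60 for monolignol, 0.62 for regulator and 0.74 for primary-wall CesA IDs, against 0.11 for all rows. There an r of at least 0.7 was reached by 6 of 6 xylan, 4 of 10 monolignol, 4 of 9 regulator and 2 of 3 primary-wall CesA IDs, and by 10.3% of all rows. The primary-wall list thus read 0.03 with the knockout libraries and 0.74 without them. These correlations describe the same libraries and share their scaling.

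**Figure D5:**
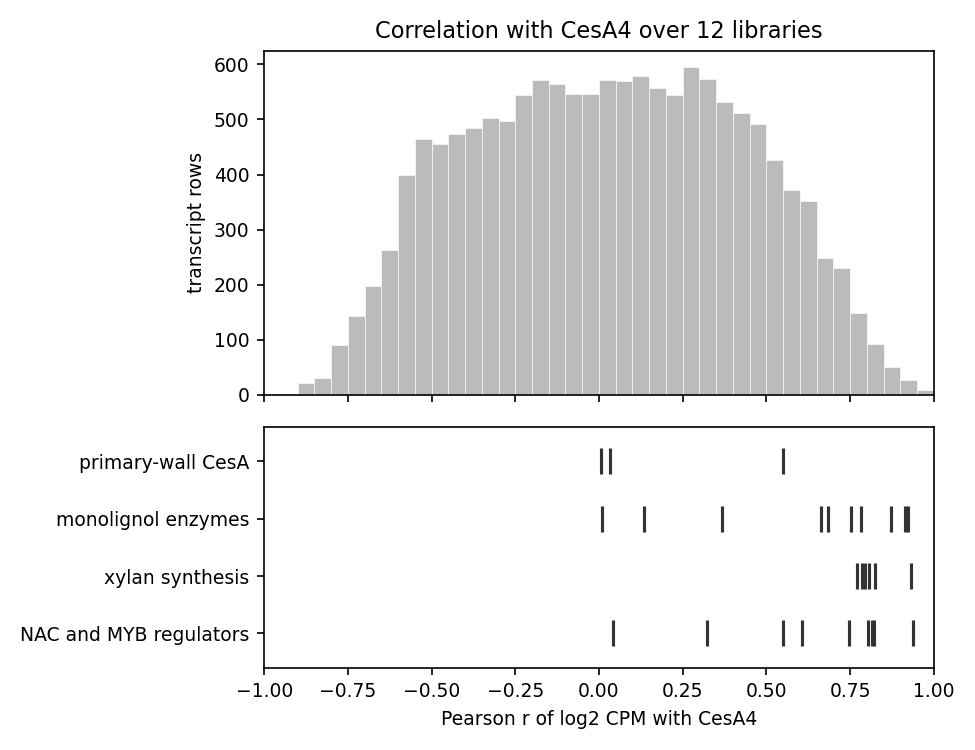
Pearson's r of log2 CPM with CesA4 over 12 libraries, as the number of all other tested rows per bin of 0.05 (upper panel) and as 1 tick for each tested ID of 4 wall-related lists (lower panel), recalled from published nomenclature. All 6 xylan IDs lie at or above 0.77, and the primary-wall CesA IDs lie between 0.01 and 0.55.

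Among all other rows, CesA7-B ranked 2 of 14278 in its correlation with CesA4, behind Potri.006G120400.1 (r = 0.975), and CesA8-A ranked 3085. From the side of CesA7-B, CesA4 ranked 5, with Potri.T070100.1 first (r = 0.977). An r of at least 0.9 with CesA4 was reached by 0.245% of rows. The rows with a mean of at least 5 CPM most like the average standardised profile of the 3 members over 12 libraries were Potri.001G107000.1 (r = 0.928), Potri.001G143600.1 (r = 0.923), Potri.010G046400.1 (r = 0.920), Potri.016G078200.1 (r = 0.918) and Potri.018G127100.1 (r = 0.917). None of them is named here, for want of an annotation. CesA8-A, at 2 to 33 counts a library, weighs as much in this profile as each other member, so its counting error enters the ranking. The first row, Potri.001G107000.1, averaged 5.04 CPM, just above the cut. Potri.018G127100.1 stood at 87.1, 97.7 and 43.3 CPM among knockout libraries, with the other 9 libraries between 51.3 and 79.3 CPM, so that knockout libraries 1 and 2 lay above and knockout library 3 below all others, as for CesA4. The most opposite row, Potri.012G106500.1 (r = -0.893), stood at 57.0, 50.3 and 103 CPM among knockout libraries and 48.9 to 93.4 CPM elsewhere, with knockout library 3 the highest of all.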

How the data were processed

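The authors deposited raw counts, 1 table per library, covering 16866 transcript rows of 16607 loci. Per the submitters' processing notes, HISAT2, SAMtools, Cufflinks, HTSeq and DESeq2 were used, with no roles stated. No source used here gives the genome build or strand setting.

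The quasi-likelihood test of edgeR 4.0.16 (R 4.3.3) was fitted to all 12 libraries as 4 group means, with TMM scaling, no covariate and 8 residual degrees of freedom. It ran on the 14279 rows (99.8% of counts) that passed filterByExpr at a minimum count of 10, a minimum total of 15 and a proportion of 0.7. Tests were two-sided, with Benjamini-Hochberg adjustment over these rows and a threshold of 0.05. The biological coefficient of variation was 24.6%, and SEs were derived from F statistics. Correlations, member ratios, components and spread used log2 CPM (prior count 2). The procedure was tested on simulated counts. Replicate pairs all differed by more than sampling noise (chi-square per degree of freedom at least 8.81).

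The members, lists and tests were chosen with earlier results of these data known, so the p-values printed for the members are not free of that choice. By rule, the named rows are the members plus, among rows averaging at least 5 CPM, the 5 most like and the 2 most unlike their mean profile, of which the first is given. The top rows for CesA4 and CesA7-B singly, and the partners given with levels, were picked after values were seen. Genes of the lists and cell type markers could not be named without an annotation and are left out. Alternatives were RLE, upper-quartile or no scaling, other filters and prior counts, DESeq2 1.42.0, limma-voom (limma 3.58.1), fitting only the groups compared, a single control group and leaving out each library.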

Additional observations from a re-analysis of the deposited data

Results flagged for a closer look

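The count ratio of CesA4 to CesA7-B in empty-vector library 2 was 2.72, far above the other 5 controls, which lay between 2.28 and 2.41. The gap test behind this marks about 1 in 20 groups by chance, and it was applied to both ends of 4 measures. This library also had the most counts of all (17.3 M). Whether depth has a part in the ratio was not tested. Without it the knockout difference in log2 ratio was 0.37.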

How the results depend on the processing

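Of 294 recomputed values, 264 kept direction and side of the threshold or, for spread, stayed within 1.5-fold, including all 18 of the CesA4 and CesA7-B correlation (r from 0.959 to 0.989). Knockout library 3 decided the most. Leaving out 1 library at a time gave log2 fold changes of 0.22 to 0.90 for CesA4 and -0.14 to 0.57 for CesA7-B in knockout against controls, and 0.25 to 0.95 for CesA4 in knockout against intermediate, the highest without knockout library 3. The knockout SD then ran from 0.075 to 1.47 for CesA4, 0.12 to 1.52 for CesA7-B and 0.16 to 0.63 for CesA8-A. CesA7-B in knockout was -0.054 against empty-vector alone. In intermediate against controls, leaving out 1 library gave -0.19 to 0.12 for CesA4 and -0.29 to 0.0080 for CesA7-B, limma-voom gave 0.0022 for CesA4, and against wild-type alone the values were 0.23 and 0.10. CesA8-A ran from -0.26 to 0.44 in knockout against intermediate and -0.13 to 0.77 in empty-vector against wild-type. The CesA4 to CesA7-B difference was 0.31 to 0.37 with 1 library left out, 0.35 against wild-type alone and 0.30 against empty-vector alone, where fewer libraries raise the smallest exact permutation p to 0.10. The CesA7-B to CesA8-A difference ran from -0.17 to 0.51. The cause of the other changes was not tested. No paired analysis was possible because the labels give no numbers shared between groups. Depth limits CesA8-A, with 2 to 33 counts a library.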
